A study of Mus musculus with 12 samples.

Results

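Allelic ratios were examined for 5 protein-coding X-linked genes, Plxna3, Aff2, Bcorl1, Pim2 and Pqbp1, out of 242 genes with a ratio. They were chosen by their response to Xist induction: the change in allelic ratio of the 3 clones with a deletion in Xist exon 7 lay above that of the 3 clones with an intact exon 7, and an earlier reading of these data had given these 5 the smallest p-values for the exon 7 term. The exon 7 differences below therefore describe the choice and carry no test. In the fit used here, no gene passed adjustment over all genes for that term. Chromatin-associated RNA sequencing (ChrRNA-seq), which reads RNA still attached to chromatin and so mostly nascent RNA, had been performed on female mouse embryonic stem cells (XX mES cells) that are hybrids of the Cast and 129 strains. The value used is the allelic ratio Xi/(Xi + Xa), the share of allele-informative reads that came from the 129 X chromosome, on which a TetOn promoter drives Xist and which becomes the inactive X (Xi), while the Cast X chromosome remains active (Xa).

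There were 12 libraries from 6 clones, each read before induction (NoDox) and once doxycycline had been present for 24 h (Dox 24 h) at 1.0 µg/mL, and all clones carried the inducible 129 allele. Clone 2B was labelled wild type (WT). In the study's list of lines it carries the 153 bp exon 7 deletion on the Cast allele, which is not induced, and an intact 129 allele. Clones 3B and 4E carry the exon 7 deletion on both alleles. Clone 6F carries a 355 bp deletion in exon 1 on the 129 allele, clone 11C is labelled with the same exon 1 deletion, and clone 7E carries both deletions on the 129 allele. The deletions remove regions rich in the RNA modification N6-methyladenosine (m6A), near the A-repeat in exon 1 and the E-repeat in exon 7. The cells were grown on feeder cells. Each line is 1 clone, so a genotype with 1 clone cannot be told apart from that clone, and the table holds only X-linked ratios, so the embryonic stem cell identity was not checked here. The exon 7 deleted clones are 3B, 4E and 7E, and the exon 7 intact clones are 2B, 6F and 11C. The exon 1 deletion is present in 1 of the 3 deleted and 2 of the 3 intact clones.

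Xist is a long noncoding RNA that coats the X chromosome from which it is transcribed and recruits factors that silence its genes, so that a gene under silencing shows a falling 129 share. X-linked genes differ in how fast they are silenced, and a minority escape silencing. Plxna3 encodes plexin-A3, a semaphorin co-receptor in axon guidance. Aff2 encodes a member of the AFF family linked to transcription elongation, and Bcorl1 encodes a transcriptional corepressor related to the BCL6 corepressor. Pim2 encodes a serine/threonine kinase, and Pqbp1 encodes a polyglutamine-binding protein with a WW domain that acts in pre-mRNA splicing.

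Before the gene values, the clones have to be compared as wholes. The median NoDox ratio over the 242 genes was 0.506 to 0.519 in 5 clones and 0.796 in 4E, so clone 4E had a surplus of 129 reads before induction. The median change after induction was between -0.0842 and -0.107 in the exon 7 deleted clones and between -0.153 and -0.225 in the intact clones. The ratio of Xist itself was at least 0.911 in NoDox and at least 0.986 after induction, so Xist reads came mostly from the 129 allele, and this ratio does not show the deletions themselves. The number of reads behind each ratio is unknown, so no interval can be given, and a bulk ratio cannot tell fewer silenced cells from weaker silencing in each cell.

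The genes lie at 4 places on the X chromosome (mm10). Pim2 (X, 7878306 to 7883432, plus strand) and Pqbp1 (X, 7894519 to 7899269, minus strand) are separated by 11.1 kb. Bcorl1 spans 48341358 to 48406728, Aff2 spans 69360331 to 69868037 and Plxna3 spans 74329066 to 74344689, all on the plus strand. No annotated gene overlaps any of the 5 on the same strand in GENCODE M21, and the antisense gene Gm14705 overlaps the start of Aff2, where reads had been counted by strand. The lengths run from 4.75 kb for Pqbp1 and 5.13 kb for Pim2 to 508 kb for Aff2, beside a median of 27.1 kb.

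The upstream sequence of Pim2, Pqbp1, Plxna3 and Bcorl1 is shown because the genes changed in a like manner and because Pqbp1 shares its promoter interval with a neighbour. The stretches are from RefSeq on GRCm38.p6, run 5′ to 3′ on the strand of the gene, and lie outside the exons annotated in GENCODE M21. CG dinucleotides are in capitals.
Pim2 (chrX:7878056-7878261, plus strand): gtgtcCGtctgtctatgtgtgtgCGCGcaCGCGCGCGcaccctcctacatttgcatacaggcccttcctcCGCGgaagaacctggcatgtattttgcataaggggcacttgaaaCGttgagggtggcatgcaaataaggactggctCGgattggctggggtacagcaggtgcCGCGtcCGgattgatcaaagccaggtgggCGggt
Pqbp1 (chrX:7899270-7899356, minus strand): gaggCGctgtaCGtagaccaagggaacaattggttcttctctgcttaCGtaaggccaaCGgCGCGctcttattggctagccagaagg
Plxna3 (chrX:74328816-74329065, plus strand): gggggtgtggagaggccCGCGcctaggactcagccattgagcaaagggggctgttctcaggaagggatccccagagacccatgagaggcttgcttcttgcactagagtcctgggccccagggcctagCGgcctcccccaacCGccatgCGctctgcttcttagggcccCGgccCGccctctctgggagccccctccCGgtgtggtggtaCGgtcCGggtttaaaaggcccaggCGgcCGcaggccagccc
Bcorl1 (chrX:48341108-48341357, plus strand): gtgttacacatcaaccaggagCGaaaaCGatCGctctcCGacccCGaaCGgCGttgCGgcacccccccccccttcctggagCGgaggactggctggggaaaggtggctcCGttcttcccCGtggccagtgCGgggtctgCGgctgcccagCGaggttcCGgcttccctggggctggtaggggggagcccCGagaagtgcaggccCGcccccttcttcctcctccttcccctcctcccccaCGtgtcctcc

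The 87 bases of Pqbp1 are the whole interval between its start and the start of Timm17b, an inner mitochondrial membrane translocase gene that runs the other way. In the full windows of 250 bases before to 50 after the start, Pqbp1 held 32 CG dinucleotides and Pim2 held 31, beside a median of 15 in the 251 windows that matched 197 genes of the table and 7 in all 32851 windows. Bcorl1 held 21, Plxna3 18 and Aff2 16. A second annotated window of Pqbp1 held 13. The Sp1-type motif GGGCGG, searched on both strands, occurred at least once in Pim2, Bcorl1, Plxna3 and Aff2 and in the second window of Pqbp1, as it did in 59.0% of the windows of the table and 35.7% of all windows. CCAAT on either strand occurred in Pim2 and in both windows of Pqbp1, and in 47.0% and 37.4% of the same sets. TATAAA and AANATGGC occurred in none of the windows of the 5 genes, and in 8.37% and 10.8% of the windows of the table. Most of the Aff2 window lies in annotated transcripts, so its sequence is not printed.

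Pim2 was the gene with the largest difference between the exon 7 deleted and the exon 7 intact clones. In the intact clones its ratio went from 0.579 to 0.182 in 2B, from 0.432 to 0.200 in 6F and from 0.483 to 0.163 in 11C. In the deleted clones it went from 0.300 to 0.433 in 3B, from 0.922 to 0.927 in 4E and from 0.426 to 0.437 in 7E. The 3 intact clones thus lost 129 share and the 3 deleted clones did not, although the rises in 4E and 7E were only 0.00570 and 0.0115. The change averaged 0.0502 ± 0.0721 (SD, n = 3) in the deleted and -0.316 ± 0.0826 (SD, n = 3) in the intact clones, a difference of 0.367, first of 242 genes. Pim2 was 1 of 2 genes whose ratio rose in all 3 deleted clones. The other was Timm17b, which begins 21.1 kb away.

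Pqbp1, next to Pim2, gave rises in 2 of the 3 deleted clones. Its ratio went from 0.353 to 0.465 in 3B, from 0.800 to 0.935 in 4E and from 0.425 to 0.396 in 7E. In the intact clones it went from 0.505 to 0.388 in 2B, from 0.426 to 0.229 in 6F and from 0.607 to 0.375 in 11C. The changes of the 2 sets of clones did not overlap, but the Dox 24 h ratios of 7E and 2B differed by only 0.00807. The change averaged 0.0726 ± 0.0886 (SD, n = 3) in the deleted and -0.182 ± 0.0592 (SD, n = 3) in the intact clones, a difference of 0.255, seventh of 242.

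**Figure D1:**
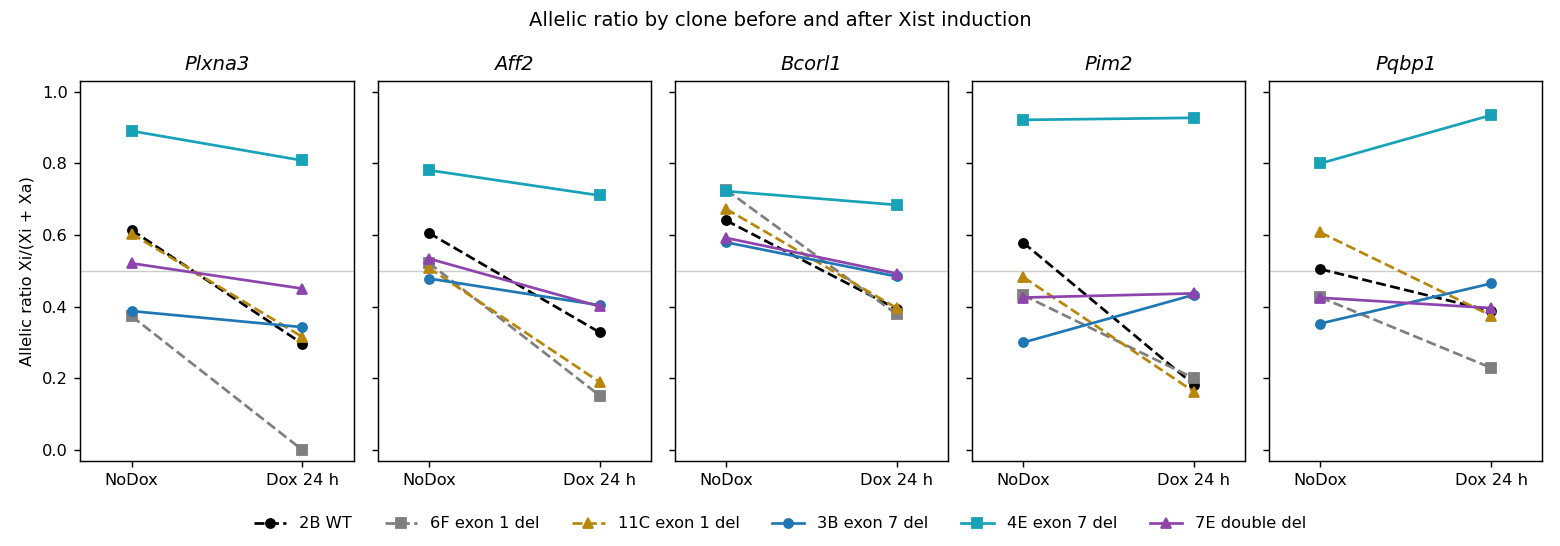
Allelic ratio Xi/(Xi + Xa), y axis, of each gene in NoDox and Dox 24 h, x axis; each line is 1 clone, solid for exon 7 deleted and dashed for exon 7 intact clones, and the grey line marks a ratio of 0.5. The dashed lines fall in each panel, to 0 for Plxna3 in 6F, while the solid lines are flatter or rise, and clone 4E lies above the other deleted clones in NoDox, between 0.723 and 0.922.

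Plxna3 fell strongly in the intact clones and little in the deleted clones. Its ratio went from 0.614 to 0.297 in 2B, from 0.374 to 0 in 6F and from 0.604 to 0.315 in 11C. In the deleted clones it went from 0.388 to 0.343 in 3B, from 0.891 to 0.808 in 4E and from 0.521 to 0.450 in 7E. The ratio of exactly 0 in 6F cannot be separated from a low read number in that library, in which 17 of the 242 genes were listed at 0. The change averaged -0.0660 ± 0.0192 (SD, n = 3) in the deleted and -0.326 ± 0.0434 (SD, n = 3) in the intact clones, a difference of 0.260, sixth of 242. Without 6F the difference was 0.237.

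Aff2 had a similar course. Its ratio went from 0.606 to 0.328 in 2B, from 0.522 to 0.152 in 6F and from 0.508 to 0.190 in 11C. In the deleted clones it went from 0.479 to 0.404 in 3B, from 0.781 to 0.711 in 4E and from 0.534 to 0.401 in 7E. The double deletion 7E fell the most of the deleted clones, by 0.133. The change averaged -0.0928 ± 0.0351 (SD, n = 3) in the deleted and -0.322 ± 0.0466 (SD, n = 3) in the intact clones, a difference of 0.230, rank 11 of 242.

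Bcorl1 started above 0.5 in each clone. Its ratio went from 0.641 to 0.393 in 2B, from 0.727 to 0.379 in 6F and from 0.673 to 0.396 in 11C, so the intact clones ended within 0.379 to 0.396. In the deleted clones it went from 0.580 to 0.484 in 3B, from 0.723 to 0.684 in 4E and from 0.592 to 0.493 in 7E. The change averaged -0.0778 ± 0.0341 (SD, n = 3) in the deleted and -0.291 ± 0.0515 (SD, n = 3) in the intact clones, a difference of 0.213, rank 13 of 242.

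The name of most spared genes therefore holds only in part. By the size of the difference the 5 genes took ranks 1, 6, 7, 11 and 13, and Glod5 (0.310), Mir669m-2 (0.299) BC023829 (0.297) and Maged1 (0.297) exceeded all of them but Pim2. In Glod5 and Mir669m-2 the clones of the 2 arms overlapped, so their larger difference came with a larger spread. By the gap between the lowest deleted and the highest intact clone, Pim2, Plxna3, Bcorl1 and Aff2 took ranks 1 to 4, with 0.238, 0.206, 0.148 and 0.144, and Pqbp1 took rank 11 with 0.0879. The genes that followed in the order of choice were Slc9a7, with a difference of 0.168, and Ddx26b, with 0.148, beside 0.213 for Bcorl1, the last to be included. Non-overlap of the arms in this direction was itself common, with 78 of 242 genes (32.2%), and nothing is read from its presence in all 5 genes.

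**Figure D2:**
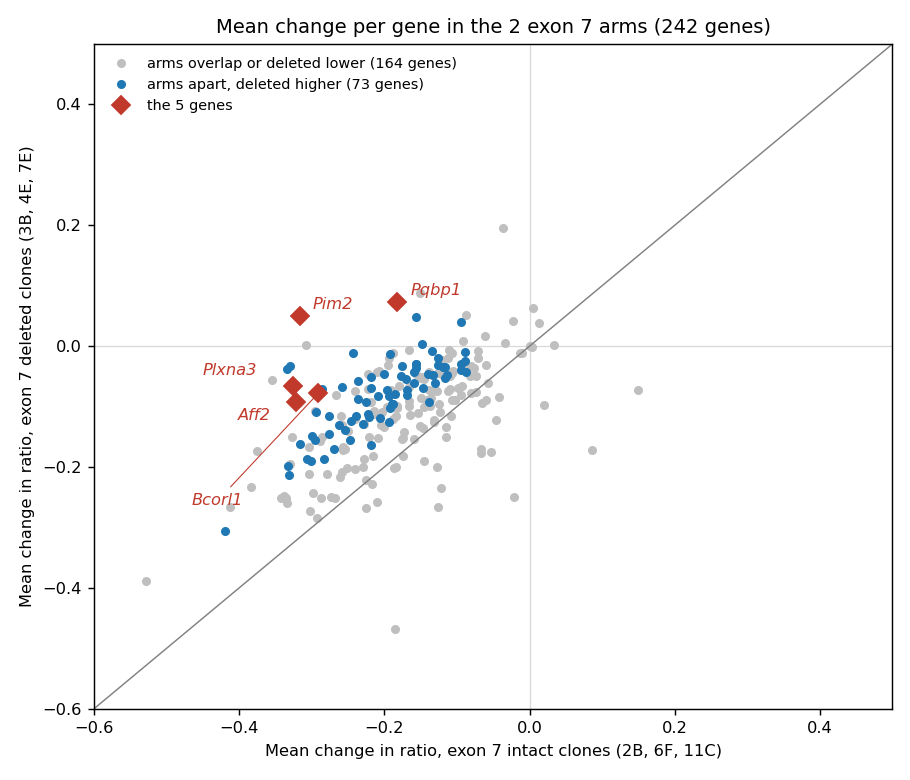
Mean change in allelic ratio (Dox 24 h minus NoDox) of 242 genes in the exon 7 intact clones (x axis, n = 3) and the exon 7 deleted clones (y axis, n = 3); each point is 1 gene and the diagonal marks equal change. The 5 genes (red diamonds) lie above the diagonal by 0.213 to 0.367, with Plxna3, Aff2 and Bcorl1 below 0 on both axes and Pim2 and Pqbp1 above 0 on the y axis.

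The 5 genes differed in which arm set them apart from other genes. For Plxna3 it was the intact clones: its change lay at percentiles 7.02 to 15.3 of the 242 genes in the intact clones, among the strongly falling genes, and at percentiles 57.9 to 67.4 in the deleted clones, near the middle. Aff2 was alike, at percentiles 7.02 to 15.7 in the intact and 28.9 to 63.2 in the deleted clones. Bcorl1 was at percentiles 14.0 to 20.2 and 40.5 to 75.6. Pqbp1 showed the other order, at percentiles 24.0 to 63.6 in the intact clones and 77.7 to 97.1 in the deleted clones, among the least falling genes. Pim2 stood out in the deleted clones, at percentiles 86.8 to 96.7. In the intact clones it stood out in 2B (1.65) and 11C (6.61) but lay near the middle in 6F (48.3).

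The difference in median change between clones accounts arithmetically for part of each value. After subtraction of the median change of its clone, the arm difference was 0.280 for Pim2, 0.174 for Plxna3, 0.168 for Pqbp1, 0.143 for Aff2 and 0.127 for Bcorl1. The arms of all 5 genes were apart on this scale, among 20 of the 242 (8.26%), a count that the choice also bears on. On the log2 odds scale, with ratios clipped at 0.01 and 0.99, the arm difference was 2.63 for Plxna3, 2.51 for Pim2, 1.90 for Pqbp1, 1.55 for Aff2 and 1.28 for Bcorl1. The value of Plxna3 depended on 6F, whose ratio of 0 gave a change of -5.88, and with clipping at 0.05 and 0.95 it was 1.83. The arms of all 5 genes were apart in log2 odds, among 65 of the 242 (26.9%), and in relative change, among 116 of the 242 (47.9%), and nothing is read from these counts. As a percentage of the NoDox ratio, the intact clones lost 38.6% to 47.9% for Bcorl1, 45.8% to 70.9% for Aff2 and 53.7% to 68.6% for Pim2. The deleted clones lost 5.32% to 16.8% for Bcorl1 and at least 9.02% for Aff2.

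**Figure D3:**
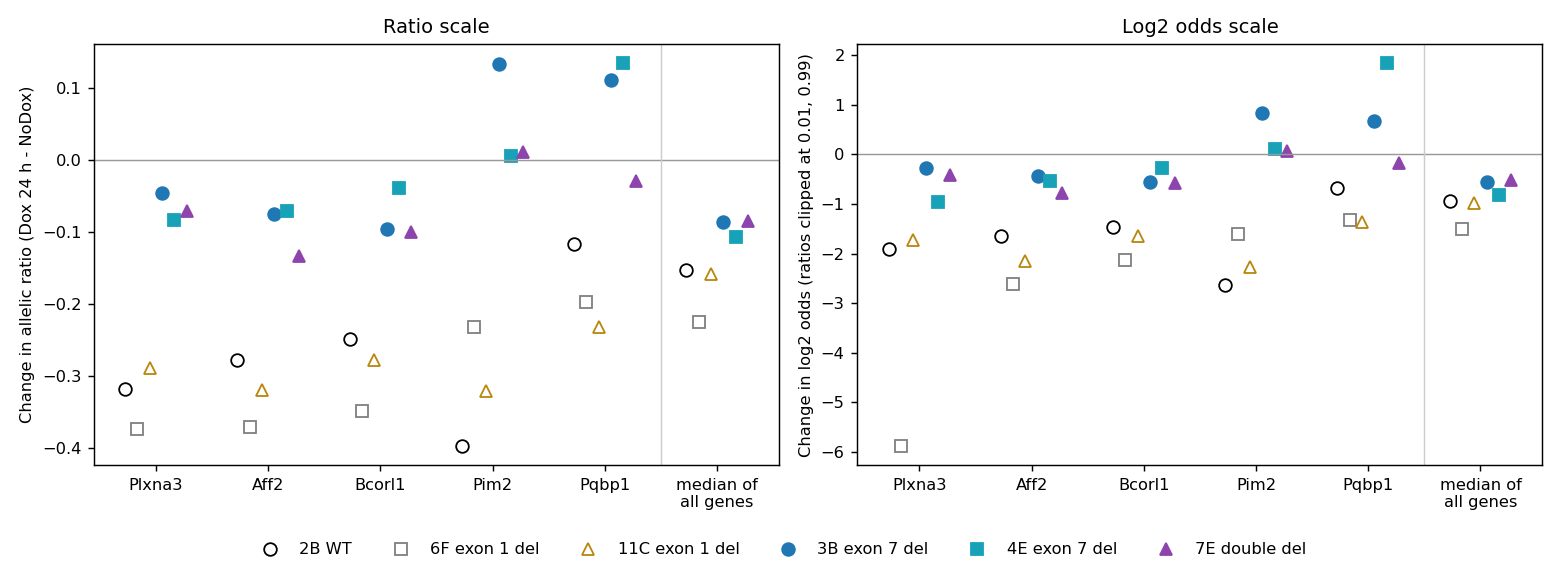
Change after induction per clone, as a difference in allelic ratio (left y axis) and in log2 odds (right y axis), for each gene and for the median of all 242 genes (x axis); filled symbols are exon 7 deleted and open symbols exon 7 intact clones, 1 point per clone. Filled and open symbols do not overlap in any of the 5 genes on either scale, and the open square of Plxna3 at -5.88 is clone 6F with a Dox 24 h ratio of 0.

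The NoDox ratios of the arms overlapped for each of the 5 genes when all 6 clones were taken. The NoDox mean of the deleted clones exceeded that of the intact clones by 0.0694 for Plxna3, 0.0524 for Aff2, 0.0511 for Pim2 and 0.0133 for Pqbp1 and was lower by 0.0487 for Bcorl1. Clone 4E, in which the 5 NoDox ratios were 0.723 to 0.922, contributed to these means, and without it the deleted clones were the lower ones in all 5 genes, by 0.0392 to 0.135. In Bcorl1, Pim2 and Pqbp1, both 3B and 7E then started below every intact clone, and the part of this lower start in their smaller fall was not tested. The arm difference in change without 4E was 0.389 for Pim2, 0.269 for Plxna3, 0.223 for Pqbp1, 0.218 for Aff2 and 0.193 for Bcorl1. The Dox 24 h ratios alone, which took part in the choice, were apart in all 5 genes and in 137 of the 242 (56.6%), so nothing is read from this count. Their differences were 0.418 for Pim2, 0.330 for Plxna3, 0.282 for Aff2, 0.268 for Pqbp1 and 0.164 for Bcorl1. Without 4E these became 0.254, 0.193, 0.179, 0.0997 and 0.0991, in the same order.

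As the exon 1 deletion was spread unevenly over the arms, the exon 7 difference was also taken within each exon 1 state. Among clones with an intact exon 1, 3B and 4E exceeded 2B by 0.467 for Pim2, 0.254 for Plxna3, 0.240 for Pqbp1, 0.205 for Aff2 and 0.181 for Bcorl1, where the median of all genes was 0.0480. Among clones without the exon 1 region, 7E exceeded 6F and 11C by 0.288 for Pim2, 0.260 for Plxna3, 0.213 for Bcorl1, 0.211 for Aff2 and 0.186 for Pqbp1, where the median of all genes was 0.111. Each of these rests on 1 clone against 2. As the genes were chosen for arms apart, the direction was fixed in advance, and nothing is read from their excess over the medians. In the double deletion the change was below the mean of 3B and 4E in each of the 5 genes, from 0.00702 lower for Plxna3 to 0.152 lower for Pqbp1, where the median of all genes was 0.0131 higher. This too is 1 clone against 2 and was not tested.

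The mean change over the 6 clones was examined with limma and Benjamini-Hochberg adjustment over 242 genes. It passed below 0 for all 5 genes, as for 173 of the 242 (71.5%), and no gene passed in the other direction. The mean comes from the same 6 changes that took part in the choice. For Pim2 and Pqbp1 it joins a fall in each intact clone with rises in deleted clones. The SE and p-values below leave out this difference between the arms, as the fit has an exon 7 term. The mean change was -0.208 ± 0.0167 (SE, adjusted p = 0.00173) for Aff2, lower in 6 of 6 clones. It was -0.196 ± 0.0196 (SE, adjusted p = 0.00209) for Plxna3 and -0.184 ± 0.0197 (SE, adjusted p = 0.00219) for Bcorl1, also lower in 6 of 6. It was -0.133 ± 0.0318 (SE, adjusted p = 0.0169) for Pim2, lower in 3 of 6, and -0.0546 ± 0.0172 (SE, adjusted p = 0.0386) for Pqbp1, lower in 4 of 6. The median over all genes was -0.132. The choice by a small exon 7 p-value favours genes with little residual spread, which lowers these p-values too. When the pairing of libraries by clone was left out of the fit, 17 of the 242 genes passed and none of the 5 did, with adjusted p from limma between 0.0547 for Bcorl1 and 0.653 for Pqbp1. For Pim2 the call was also lost without 2B, 4E or 7E, with adjusted p from limma of 0.0616 to 0.0706. For Pqbp1 it was lost without 2B, 3B, 4E, 7E or 11C, with 0.0756 to 0.168. On the log2 odds scale it was lost for Plxna3 (0.0594) and Pqbp1 (0.481).

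The exon 1 term was not significant for any of the 5 genes or of the 242 genes (0%) with limma, and 5 genes had an unadjusted p below 0.05. The difference in change, deleted minus intact exon 1, was -0.125 ± 0.0366 (SE) for Pqbp1, -0.0639 ± 0.0355 for Aff2, -0.0488 ± 0.0417 for Bcorl1, -0.0102 ± 0.0415 for Plxna3 and 0.0315 ± 0.0675 for Pim2. The adjusted p from limma was 0.985 for each. With 3 clones on each side, effects of the size of the standard errors could not be detected.

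Neighbouring genes were examined for the same pattern. Timm17b, which shares the 87-base interval with Pqbp1, rose by 0.231 in 3B, 0.192 in 4E and 0.163 in 7E. In the intact clones it changed by 0.415 in 2B, -0.532 in 6F and 0.00635 in 11C, so its arms overlapped and its arm difference of 0.232 had a spread of 0.475 (SD, n = 3) in the intact clones. Otud5, a deubiquitinase gene on the other side of Pim2, had an arm difference of 0.0408 with overlapping arms, and the potassium channel gene Kcnd1 had -0.0438. Eras, a Ras family gene active in embryonic stem cells, had 0.139 with overlapping arms. Glod5, which starts 126 kb from Pim2, had 0.310 with overlapping arms. The differences of the other genes within 1 Mb ran from -0.257 to 0.310. The high values of Pim2 and Pqbp1 were thus not a feature of every gene at that place, nor were large differences confined to them.

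Beside Plxna3, the arms overlapped for Fam50a (-0.104), Fam3a (-0.111) and Ikbkg (0.0668). Beside Bcorl1, the arms were apart for Aifm1 (0.133) and for Utp14a (0.0831), a gene known to escape silencing, and overlapped for Zdhhc9 (0.0666) and Elf4 (0.0573). Utp14a fell by 0.0854 to 0.148 in the intact and by 0.0279 to 0.0376 in the deleted clones, less than Bcorl1 in each clone. Beside Aff2, the arms were apart for Fmr1 (0.128), which encodes an RNA-binding protein of translation, and for BC023829 (0.297), and overlapped for Fmr1nb (0.0912) and Ids (0.0869). Among other genes starting within 1 Mb, the median arm difference was 0.0654 for the 30 genes around Plxna3, 0.0890 for the 4 around Aff2, 0.0831 for the 11 around Bcorl1 and 0.0753 for the 24 around Pim2 and Pqbp1, beside 0.0830 for all 242. Arms were apart in 7, 1, 5 and 5 of them, respectively.

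**Figure D4:**
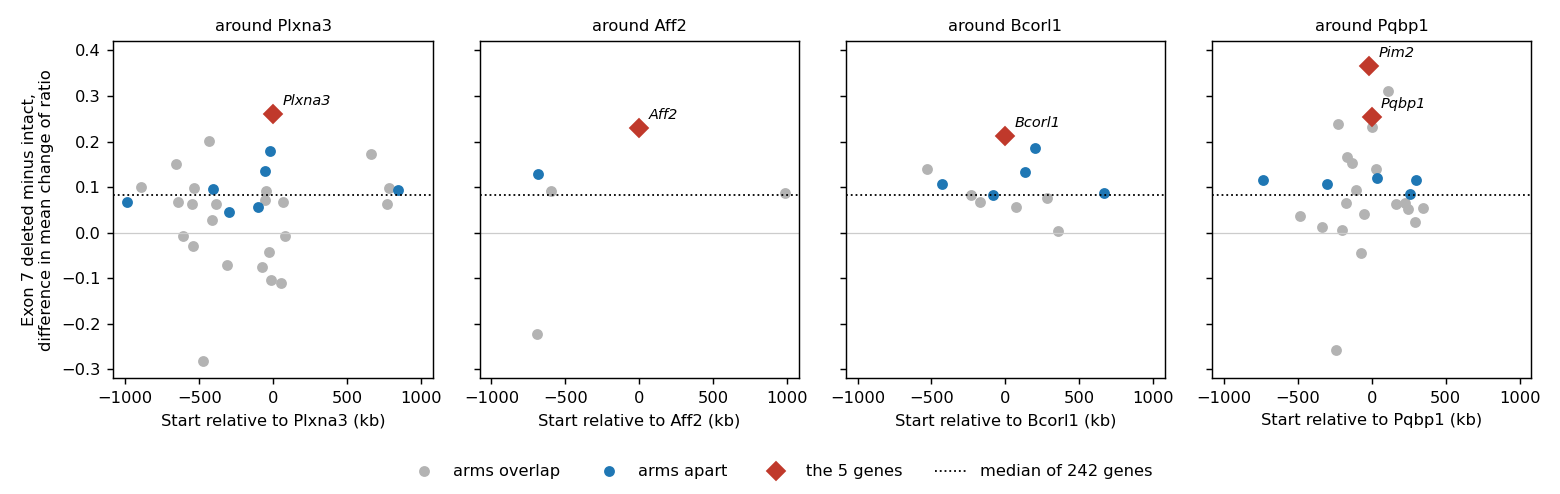
Arm difference (mean change of exon 7 deleted minus intact clones, y axis, ratio units) of genes against the distance of their start from that of Plxna3, Aff2, Bcorl1 or Pqbp1 in kb (x axis); blue points have non-overlapping arms, grey points overlapping arms, and the dotted line is the median of 242 genes, 0.0830. Most neighbours lie near the dotted line, and within 1 Mb Glod5, at 0.310, is the only gene outside the 5 that exceeds Pqbp1.

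The changes of the 5 genes over the 6 clones went together with Pearson r of 0.814 (Bcorl1 and Pim2) to 0.986 (Aff2 and Bcorl1), a likeness that the shared choice already fixes in part. Of the other genes, the one most like each was Clcn5 for Bcorl1 (r = 0.997), Mcf2 for Aff2 (r = 0.991) and Pqbp1 (r = 0.972), Gyk for Plxna3 (r = 0.978) and Maged1 for Pim2 (r = 0.966), over the same 6 clones and libraries. Their arm differences were smaller for Clcn5 (0.116), Mcf2 (0.104) and Gyk (0.119) than for the genes they resembled, and that of Maged1 was 0.297. Maged1 fell by 0.152 in 7E and by 0.0292 in 4E and rose by 0.0675 in 3B, where Pim2 rose in all 3.

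The 5 genes were then set beside genes of like function, by lists that contain them. Over all 242 genes, 173 (71.5%) fell with doxycycline and 78 (32.2%) had arms apart. As each list holds genes chosen for having arms apart, nothing is read from the counts below. Of 23 chromatin and transcription regulators with a ratio, 18 fell with doxycycline by limma and 10 had arms apart, with a median arm difference of 0.0865 beside 0.0830 over all genes. Among them Aff2 and Bcorl1 stood beside Phf6, a chromatin-binding protein gene, with 0.215 and arms apart. Bcor, the relative of Bcorl1, had 0.0980 with overlapping arms. Of 18 RNA processing genes, 13 fell with doxycycline and 6 had arms apart, with a median of 0.0585. Pqbp1 was the highest of these and Rbmx, a splicing regulator gene, followed with 0.132.

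Of 12 genes for kinases, phosphatases and their regulators, 9 fell with doxycycline and 5 had arms apart, with a median of 0.0914. Pim2 was the highest and Pdk3, a pyruvate dehydrogenase kinase gene, followed with 0.140. Of 16 genes for receptors, adhesion and axon guidance, 15 fell with doxycycline and 9 had arms apart, with a median of 0.0923. Plxna3 was followed by Il1rapl1, a synaptic adhesion gene, with 0.231, and the adhesion gene L1cam had -0.282 with overlapping arms, the lowest value of the table. The shares over all 242 genes were 71.5% for a fall with doxycycline and 32.2% for arms apart, and nothing is read from these counts either. No gene of the 4 lists passed the exon 1 term, as no gene of the 242 did.

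Known escape genes and strongly silenced genes give a scale for these values. The escape gene Kdm6a, a histone demethylase gene, changed by -0.0332 ± 0.0248 (SD, n = 3) in the intact and 0.00524 ± 0.0271 (SD, n = 3) in the deleted clones, with overlapping arms. The mean changes of Pim2 (0.0502) and Pqbp1 (0.0726) in the deleted clones were above this value by less than their own SD of 0.0721 and 0.0886. Of the other escape genes, the RNA helicase gene Ddx3x had arms apart with a difference of 0.0643, and the translation initiation factor gene Eif2s3x had overlapping arms with 0.00309. These genes did fall: the intact clones averaged -0.0893 for Ddx3x, -0.0800 for Eif2s3x and -0.117 for Utp14a. Their mean change passed below 0 (adjusted p = 0.0294, 0.0380 and 0.0150 from limma), and that of Kdm6a did not (0.492). Smarca1, a chromatin remodeller gene, changed by -0.529 ± 0.0789 (SD, n = 3) and -0.388 ± 0.139 (SD, n = 3), and Heph, a ferroxidase gene, by -0.412 ± 0.134 (SD, n = 3) and -0.266 ± 0.145 (SD, n = 3), with overlapping arms in both. Nhsl2 changed by -0.419 ± 0.113 (SD, n = 3) and -0.306 ± 0.0321 (SD, n = 3), and its arms were apart with a difference of 0.113. The losses of these 3 genes in the deleted clones were larger than those of any of the 5 genes.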

How the data were processed

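The authors removed ribosomal reads with bowtie2, aligned read pairs with STAR to N-masked mm10, split unique alignments by allele with SNPsplit and counted them by strand with featureCounts. They deposited, for each gene and library, the fraction Xi/(Xi + Xa), and no counts were used here, so depth is unknown. Of the columns, 12 matched a labelled library, and 10 others (6 headed WT, 4 repeats of 11C) matched no label and were not used. Xist was left out, leaving 242 genes. The change was Dox 24 h minus NoDox within a clone. NoDox and Dox 24 h were paired because they come from the same clone. Across genes, deviations of paired libraries from the mean correlated at 0.138 to 0.516 in 5 clones and at -0.0549 in 6F. For 11C (0.138) and 6F, the correlation with another clone reached higher values, 0.222 and 0.207. In the other clones the own partner correlated best. The change of each gene was modelled in limma 3.58.1 (R 4.3.3; lmFit, eBayes; mean, exon 7 and exon 1 terms), tested on simulated data, with Benjamini-Hochberg adjustment at 0.05. P-values measure the spread between clones that is left after the exon 7 and exon 1 terms are fitted. The difference between the exon 7 arms is not part of that spread. The 5 genes and the lists were chosen with earlier results of these data known. Other genes were named by rule: the next 2 in the order of choice, the 3 largest arm differences, the 2 nearest genes on each side, the most alike gene, and known escape or strongly silenced genes, and a gene that this rule names is not reported here. Highest and lowest list genes, and genes given with a list, were named after their values were seen. Alternatives were log2 odds, relative change, centring, Dox 24 h ratios alone, a common NoDox baseline, an exon 1 adjustment and leaving out each clone. Further alternatives of the limma fit were the fit without pairing, a moderated variance trend and a filter on ratios of 0 or 1.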

Additional observations from a re-analysis of the deposited data

Results flagged for a closer look

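In Dox 24 h, clone 4E stood apart from the other 5 clones in 3 of the 5 genes by the gap to its nearest clone over the range of the 6. Its ratio was 0.684 for Bcorl1, 0.927 for Pim2 and 0.935 for Pqbp1. Of 15 sets of 6 values examined, chance would mark about 1 in 20, and the 3 marks share a library, so they are not independent. The median NoDox ratio of 4E over all genes was 0.796, and the part of this clone-wide level in the values was not tested. The change of Pim2 was positive in all 3 exon 7 deleted clones and negative in all 3 intact clones, with a difference of 0.367. Pim2 was the only 1 of the 242 genes with this pattern. The difference was not tested, since it took part in the choice of the gene, and the rises in 4E and 7E were only 0.00570 and 0.0115.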

How the results depend on the processing

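All 5 genes kept a higher change in the exon 7 deleted clones under each alternative, with arms apart on the log2 odds scale (65 of the 242 genes), as relative change (116), with a common baseline (137) and after centring (20). The alternatives reuse the values by which the genes were chosen, and leaving out a clone cannot make separate arms overlap. The agreement was thus largely fixed by the choice, and nothing is read from it. Leaving out each clone moved the arm difference between 0.237 and 0.280 for Plxna3, 0.205 and 0.252 for Aff2, 0.185 and 0.235 for Bcorl1, 0.325 and 0.409 for Pim2 and 0.223 and 0.305 for Pqbp1, and adjustment for exon 1 changed none by more than the spread between clones. From Dox 24 h ratios alone, which drop each clone's own NoDox value, the difference was 0.330 for Plxna3, 0.282 for Aff2 and 0.164 for Bcorl1. A common NoDox baseline gave the same values by construction, as it subtracts the same number from every clone, and is no further evidence. In both, 137 genes of the table had arms apart in place of 78. With 4E also left out, an alternative chosen after seeing the data, it was 0.193 for Plxna3, 0.179 for Aff2, 0.0991 for Bcorl1, 0.254 for Pim2 and 0.0997 for Pqbp1, and 138 genes were apart. Centring on the clone median gave 0.174, 0.143, 0.127, 0.280 and 0.168 in that order, with 20 genes apart, since it removes the difference in median change by construction. A separate alternative, the limma fit without the replicate block (the pairing of libraries by clone), kept the libraries of both treatments. It passed 17 genes for doxycycline in place of 173, and leaving out each clone passed 133 to 165. The exon 1 term stayed at 0 genes throughout, between 0 and 0 when each clone was left out, and its sign turned for Plxna3 without 6F (0.00856) and for Pim2 without 2B (-0.0580) or 6F (-0.000206), over ranges of -0.0281 to 0.00856 and -0.0580 to 0.121 when each clone was left out. The cause of these changes was not tested. Plxna3 has no value under the filter on ratios of 0 or 1. Pqbp1 also lost its doxycycline call with a moderated variance trend (adjusted p = 0.0509 from limma). The unknown depth limits what a ratio of 0 can show.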
